A study of Mus musculus with 9 samples.

Results

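The genes described here are 9 genes of the non-homologous end-joining pathway and its V(D)J partners: Xrcc5, Xrcc6, Prkdc, Dclre1c, Xrcc4, Lig4, Nhej1, Atm and Dntt. They were chosen by name, not by any measured value, from 22350 protein-coding genes on chromosomes 1 to 19 and X. Called ChIP-seq peaks were taken wherever they touched the gene body or the 50 kb on either side of it, by 1 bp or more, in the mm9 genome build. The 9 windows together covered 1.81 Mb and held 253 of the 190262 peaks in 5 lists. ChIP-seq recovers and sequences the DNA fragments that an antibody pulls down, and a peak is a place where these fragments pile up above an input control.

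There were 5 lists, each from 1 library of C57BL/6 mice. CTCF had a library from pro-B and one from pre-B cells. Rad21, a subunit of cohesin, had one from pre-B cells and one from each of 2 kinds of thymocyte, DN and DP. Pro-B cells came from the marrow of RAG1-/- mice and were cultured with IL7 for 7 days. The study reports that such cultured cells were closer to pre-B than to fresh pro-B cells in CTCF binding and many other traits. Pre-B cells came from RAG-/- µ+ mice, which carry a rearranged IgM transgene. Marrow donors were 6 to 14 weeks old, of both sexes. DN (CD4-CD8-) thymocytes came from Rag1-/- mice, and DP (CD4+CD8+) thymocytes from Rag1-/- mice with a rearranged TCRb transgene, all 4 to 8 weeks old. Every sample therefore lacks RAG activity and makes no V(D)J breaks. Development is blocked in all of them, at a later stage in the pre-B and DP cells, which a transgene carries forward. No condition had a second library, so no test between conditions was run, and intervals below cover counting error only. Peak lists hold no expression values, so the labelled cell types could not be checked by their marker genes.

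For CTCF the pre-B list had 42250 peaks and the IL7 pro-B list 71080. For Rad21 the list of pre-B cells had 30488 peaks, that of DN 9701 and that of DP 36743. Their read depth is unknown. Each peak has a MACS score, which grows with depth. It was used to place a peak within its own list, as the percent of that list with a lower score, and, in a check named where it is given, to leave out peaks below a score of 100 in every list. The DN list is the shortest and ends at the highest score, 86.5 against 57.7 to 59.7 in the other Rad21 lists, so a site missing from it is a site not called in that list and need not be unbound.

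End-joining seals a double-strand break without a template. The Ku heterodimer, encoded by Xrcc5 (Ku80) and Xrcc6 (Ku70), caps the ends and recruits the kinase DNA-PKcs, encoded by Prkdc. Artemis, the product of Dclre1c, opens the hairpins that RAG leaves on coding ends, and XRCC4, DNA ligase IV (Lig4) and XLF (Nhej1) join them. The kinase ATM signals the break. Terminal deoxynucleotidyl transferase (TdT), encoded by Dntt, adds bases that no template specifies at V(D)J junctions. The first 8 genes are used in nearly all cells, whereas Dntt is expressed in immature lymphocytes and its expression falls when pro-B cells become pre-B cells. CTCF binds a directional DNA motif, and cohesin extruding a chromatin loop tends to stop where it meets CTCF.

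Dntt lies on chromosome 19 from 41103765 to 41134013 on the plus strand, with Blnk upstream and Opalin and Tll2 downstream. Of its 10 CTCF peaks in pre-B cells, 6 held a match to the 12-base consensus that the study's motif table gives as found de novo by HOMER, searched on both strands with at most 2 mismatches. The 6 matches are shown because they lie in the Dntt sites described with their values further on. Each is written 5′ to 3′ on the strand of the match, from mm9, with the matched bases in capitals and 14 bases on each side.

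Dntt site 12.8 kb upstream, chr19:41090591-41090630, plus strand: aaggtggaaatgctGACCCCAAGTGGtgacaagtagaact
Dntt site 2.31 kb upstream, chr19:41101420-41101459, minus strand: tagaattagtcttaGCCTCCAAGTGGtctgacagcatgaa
Dntt intron site at 24.5 kb, chr19:41128178-41128217, plus strand: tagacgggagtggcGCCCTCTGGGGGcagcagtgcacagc
Dntt site at 42.4 kb in an Opalin intron, chr19:41146231-41146270, minus strand: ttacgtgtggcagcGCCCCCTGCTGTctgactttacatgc
Dntt site at 57.5 kb in a Tll2 intron, chr19:41161347-41161386, minus strand: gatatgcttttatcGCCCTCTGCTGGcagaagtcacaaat
Dntt site at 75.8 kb in a Tll2 intron, chr19:41179589-41179628, minus strand: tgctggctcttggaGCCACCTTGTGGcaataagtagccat

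The consensus is the reverse of the form in which the CTCF motif is usually drawn, so a match found on the plus strand was read as pointing towards lower coordinates. By that reading the matches at 12.8 kb upstream and at 24.5 kb in the gene point to lower coordinates, and the other 4 point to higher coordinates. The 14-base motif EMBL_M1, CGCCCCCTGGTGGC, had its best match on the same strand in 5 of these 6 peaks. The exception was the site 12.8 kb upstream, where the best EMBL_M1 match lay on the minus strand with 4 mismatches, so the direction of that site is uncertain.

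The 200 bases before the Dntt start are shown as well, since a Rad21 peak of DP thymocytes covers them and no CTCF peak of B-lineage cells does. Their best match to the same consensus had 3 mismatches. A match with at most 2 mismatches was found in the 200 bases before the start of 6.22% of the 22350 genes.

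Dntt promoter, mm9 chr19:41103565-41103764, plus strand: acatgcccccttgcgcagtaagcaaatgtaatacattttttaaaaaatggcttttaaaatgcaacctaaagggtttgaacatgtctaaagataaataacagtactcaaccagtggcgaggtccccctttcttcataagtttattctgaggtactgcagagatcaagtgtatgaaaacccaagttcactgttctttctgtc

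Among the other 8 genes, the consensus was matched in 20 of 46 pre-B CTCF peaks. A site of Nhej1, Lig4 or Dclre1c is printed below because each was the strongest, or nearly the strongest, CTCF and cohesin site of its gene and is described again with its values.

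Nhej1 site 28.2 kb upstream, chr1:75121217-75121256, minus strand: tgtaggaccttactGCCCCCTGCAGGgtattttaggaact
Lig4 site 42.3 kb downstream of the start, chr8:9935393-9935432, plus strand: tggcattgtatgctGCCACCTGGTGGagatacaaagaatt
Dclre1c site 9.71 kb upstream, in a Meig1 intron, chr2:3331698-3331737, plus strand: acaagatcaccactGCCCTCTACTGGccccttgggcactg

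Over all 9 genes, 26 of 56 pre-B CTCF peaks held a match, 46.4% (33.0 to 60.3, exact Clopper-Pearson interval at 95%), against 48.3% of the whole list. In sequence of equal length 2000 bp away, 9 of 56 did (16.1%), and 9.04% did for the whole list. The share at Dntt was 6 of 10 (26.2 to 87.8%), an interval that holds the value of the whole list.

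Overlapping peaks of the 5 lists were merged into sites, which gave 96 sites in the 9 windows. Of these, 25 lay upstream of the gene, 8 within 1 kb of the gene start, 28 elsewhere in the gene and 35 downstream. CTCF was called at 79 sites (82.3%, against 84.9% of sites genome-wide), Rad21 at 69 (71.9% against 55.2%) and both at 52 (54.2% against 40.1%). In all 5 lists 13 sites were called (13.5%, 7.41 to 22.0, against 10.3%), and in a single list 31 (32.3%, 23.1 to 42.6, against 45.2%). Xrcc6 held 6 of the 13, Dntt and Nhej1 2 each, and Xrcc4, Lig4 and Dclre1c 1 each. Xrcc5, Prkdc and Atm had none, since no DN peak fell in their windows.

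**Figure D1:**
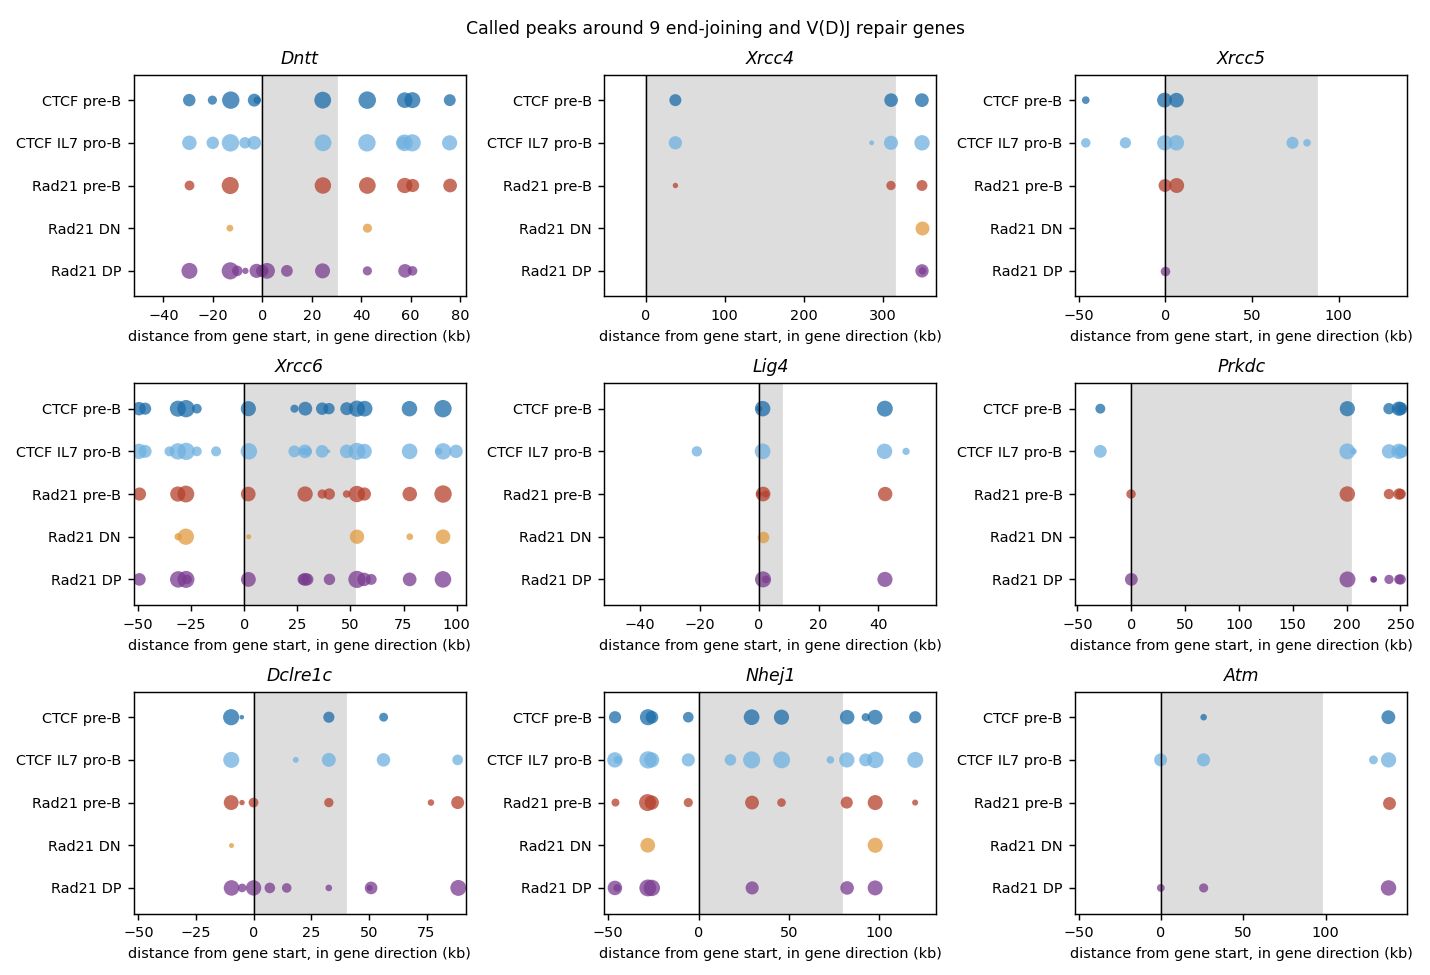
Peaks around each gene by distance from its GENCODE start (kb, horizontal axis, in the direction of the gene), in 5 lanes for the 5 lists. A dot is 1 peak, its area grows with the percent of its list that scored lower, and the grey band is the gene body. Dntt, Xrcc6 and Nhej1 carry the densest rows of dots, Xrcc4 and Atm the sparsest, and the DN lane of Xrcc5, Prkdc and Atm is empty.

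Peak density differed widely among the 9 genes. Xrcc6 had 9.85 pre-B CTCF peaks per 100 kb of its window (5.51 to 16.2, exact Poisson interval at 95%), Dntt 7.68 (3.68 to 14.1) and Nhej1 5.57 (2.67 to 10.2). The lowest was Xrcc4 with 0.722 (0.149 to 2.11), a gene of 316 kb. For Rad21 in pre-B cells the range was from 7.88 at Xrcc6 and 5.37 at Dntt to 0.506 at Atm. Xrcc6 and Dntt do not differ beyond these intervals in any list, and neither do Dntt and Nhej1. The Xrcc6 window is also the most crowded, with 8 other protein-coding genes, against 3 in the Dntt window and 2 in those of Xrcc4 and Lig4. The part that this crowding has in the density was not tested.

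Pooled over the 9 windows, all 5 lists were denser than over the genome. The windows held 30.9 pre-B CTCF peaks per Mb (23.3 to 40.1) against 16, and 41.9 IL7 pro-B CTCF peaks (33.0 to 52.4) against 26.9. For Rad21 they held 27 in pre-B cells (20 to 35.7) against 11.6, 7.16 for DN (3.81 to 12.2) against 3.68, and 32.5 for DP (24.7 to 41.9) against 13.9. The genome value includes stretches without genes, and Xrcc6, Dntt and Nhej1 held most of these peaks. Gene by gene, the picture was mixed. The median density of the 9 was 2.79 pre-B CTCF peaks per 100 kb, and the median over all protein-coding genes was 3.05. For Rad21 it was 3.72 against 1.99 for pre-B, 0.714 against 0.656 for DN and 2.79 against 2.32 for DP. For CTCF in IL7 pro-B cells it was 3.57 against 5.02.

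**Figure D2:**
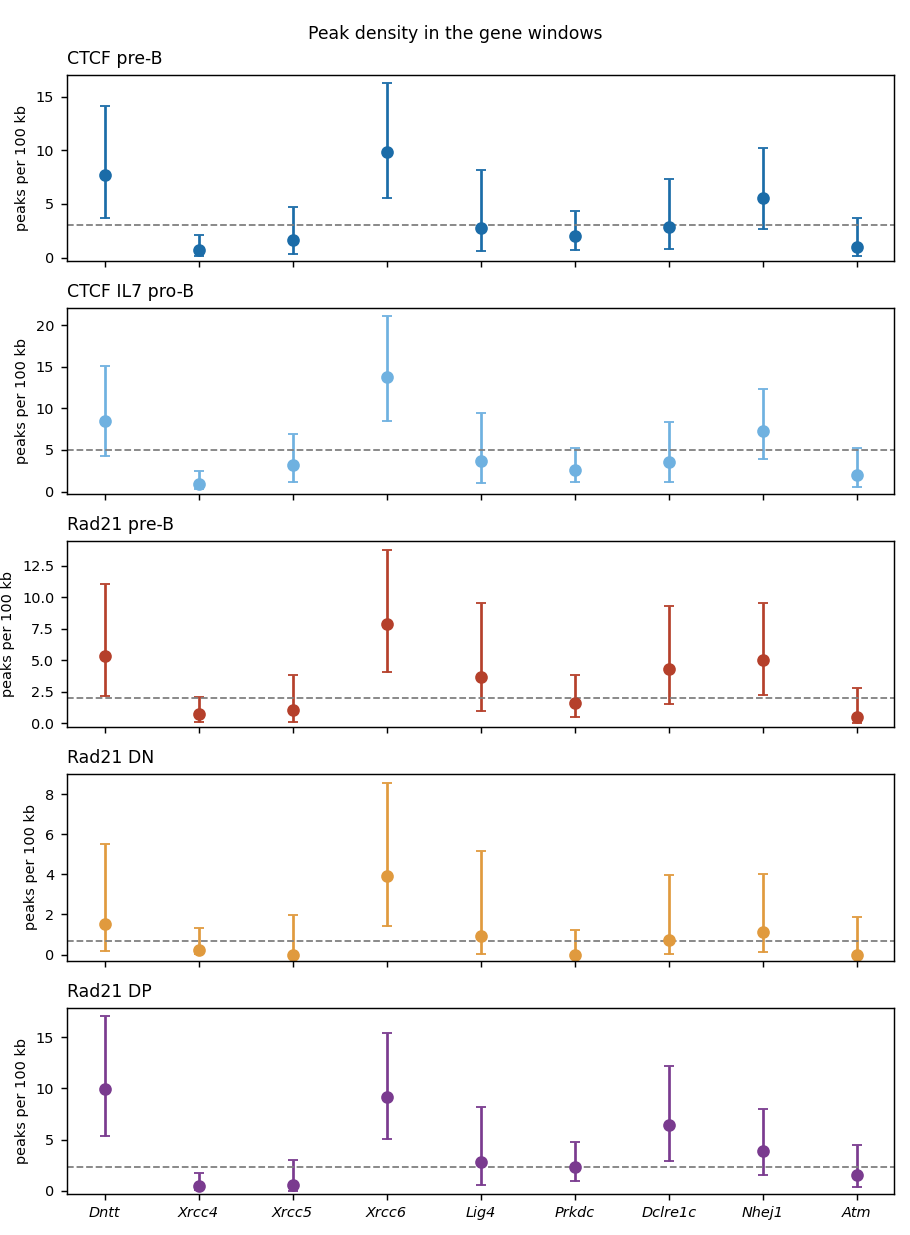
Peaks per 100 kb of window (vertical axis) for each gene, 1 panel per list. Points are the counts divided by the window length, bars are exact Poisson 95% intervals (counting error only), and the dashed line is the median over all protein-coding genes. Xrcc6 is highest in 4 panels and Dntt, at 9.98, in the DP panel.

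Promoters were read as the 1 kb on either side of the gene start in the GENCODE annotation of mm9. In pre-B cells CTCF was called at 2 of the 9 promoters, those of Xrcc5 and Lig4, where 22.0% of all protein-coding genes had such a peak. In IL7 pro-B cells it was called at 3, the same pair and Atm, against 33.2% of all genes. Rad21 was called at 4 in pre-B cells, at Xrcc5, Lig4, Prkdc and Dclre1c, against 16.9%, and at 6 in DP thymocytes, which added Dntt and Atm, against 29.5%. No promoter was called in DN thymocytes (0 of 9, exact upper bound 33.6%), where 3.0% of all genes had a peak. The exact 95% intervals of these shares held the background in every list except DP. There 6 of 9 gave 29.9 to 92.5%, just above the background. The Lig4 call among the 6 was a peak centred 1.33 kb from the start, reaching the 1 kb limit by its edge. With scores of at least 100, DP had 4 of 9 (13.7 to 78.8%), which held the 19.5% of all genes, and pre-B Rad21, also 4 of 9, lay above the 10.6% of all genes. With Rad21 lists of equal length, 2 promoters were called in DP, against 6.04% of all genes, and 1 in pre-B cells, against 3.41%. The intervals, 2.81 to 60% and 0.281 to 48.2%, held these shares. When any annotated transcript start was used, the counts were 3 and 4 for CTCF in pre-B and IL7 pro-B cells, against 27.1% and 38.8% of all genes. For Rad21 they were 5 for pre-B, 1 for DN and 7 for DP, against 20.9%, 4.57% and 33.0%. The interval lay above the background for DP (40.0 to 97.2%) and narrowly for pre-B Rad21 (21.2 to 86.3%), and held it in the other lists.

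For Ku, Xrcc5 lies on the plus strand of chromosome 1 from 72353995 to 72441526, and its promoter was covered from 72352967 to 72354354 in 4 lists. CTCF scored there above 71.4% of the pre-B list and 75.7% of the IL7 pro-B list, and Rad21 above 52.4% of the pre-B list and 26.9% of the DP list. A further site in the gene, 6.44 kb from the start, carried CTCF in both B-lineage lists and Rad21 in pre-B cells above 71.8% of the list, but was not called in thymocytes. These were the only Rad21 sites of Xrcc5.

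Xrcc6, on the plus strand of chromosome 15 from 81818265 to 81870515, had no peak at its GENCODE start. The nearest site lay 2.04 kb inside the gene and was called in all 5 lists. The RefSeq start, placed on mm9 by an exact match of its promoter sequence, lies 28534 bp further along the gene at 81846799, and there a site was called in 4 lists. It scored above 60.9% of CTCF peaks and 75.7% of Rad21 peaks in pre-B cells. This start was looked at after the data had been seen. It lies within the annotated span of Pppde2, a gene on the other strand, and 144 bp from the nearest annotated transcript start of that gene, at 81846655. The 3 strongest cohesin sites of the Xrcc6 window stood outside the gene, and each was called in all 5 lists. One, 93.6 kb from the start in a Mei1 intron, had a Rad21 peak above 98.7% of peaks in pre-B cells, 89.2% for DP and 68.3% for DN. The one 27.3 kb upstream, at the start of Pmm1, stood above 92.5%, 94.0% and 85.9% in the same order. The one just past the end of Xrcc6, at 53.0 kb, stood above 87.6%, 96.1% and 65.5%. Within the gene, the pre-B Rad21 peak was higher at the RefSeq start than at the 2.04 kb site (75.7% against 69.3%). DP Rad21 went the other way (53.7% against 70.6%), as did CTCF in pre-B (60.9% against 73.9%) and IL7 pro-B cells (59.0% against 87.9%).

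Prkdc, on the plus strand of chromosome 16 from 15637959 to 15842332, had a Rad21 peak at its start, which it shares with Mcm4, a subunit of the replicative helicase transcribed the other way. Rad21 scored there above 26.1% of the pre-B list and 51.3% of the DP list, with no CTCF peak in either B-lineage list. The next site along the gene lay in an intron near its far end, at 15838373 to 15839053, with CTCF and Rad21 in 4 lists. No site was called in the whole gene between them. Of its 11 sites, 8 lay downstream.

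Dclre1c, on the plus strand of chromosome 2 from 3341403 to 3381402, showed the same kind of promoter as Prkdc, with a site from 3340703 to 3342050 that had Rad21 in pre-B cells and DP thymocytes and no CTCF. Rad21 scored there above 28.3% of the pre-B list and 76.2% of the DP list. The printed site 9.71 kb upstream was the strongest CTCF site of Dclre1c, above 85.1% of the pre-B list, and was called in all 5 lists. Of its 10 Rad21 sites, 6 had no CTCF peak, including a pair at the start of Suv39h2, a histone methyltransferase gene. The other 4 had one (40%, 12.2 to 73.8), an interval that holds the 72.9% of Rad21 sites genome-wide.

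The ligation genes differed from each other. Lig4, on the minus strand of chromosome 8 from 9970020 to 9977686, is the shortest of the 9 at 7.67 kb, and its GENCODE start lies next to that of Abhd13 on the other strand. The strong site of its promoter region lay 1.34 kb into the gene, from 9975970 to 9976725, over a second annotated start, and was called in all 5 lists. Its Rad21 peak stood above 69.6% of peaks in pre-B cells, 83.6% for DP and 41.6% for DN. Its DN part, centred 1.16 kb from the gene start, just missed the 1 kb limit, and Lig4 was the only gene of the 9 with a DN peak when any annotated transcript start was used. Peaks of the strong site for DP Rad21 and IL7 pro-B CTCF, centred 1.33 and 1.19 kb in, just reached the 1 kb limit. The weaker site at the shared start itself was called for CTCF and Rad21 in pre-B cells, above 9.20% and 7.89% of their lists. The printed site 42.3 kb beyond the start carried the highest CTCF peak of Lig4 in pre-B cells, above 82.1%, and was called in 4 lists.

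Xrcc4, on the minus strand of chromosome 13 from 89913632 to 90229213, was the poorest in sites for its length, with 5 in a window of 416 kb. It had no peak at its start in any list under the GENCODE start, any annotated start or the RefSeq start. Inside the gene, 2 intron sites were called for CTCF in both B-lineage lists and for Rad21 in pre-B cells and not in thymocytes, at 37.6 and 310 kb from the start. The only site called in all 5 lists lay beyond the gene, 349 kb from its start, at the start of Vcan, the gene of a matrix proteoglycan.

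Nhej1, on the minus strand of chromosome 1 from 75013713 to 75093213, had 13 sites, all with CTCF, and no peak at its GENCODE start. Its RefSeq start lies 28587 bp further upstream, at 75121800, and this start falls in the strongest site of the window in every list but DN, from 75120738 to 75122046. CTCF scored there above 83.8% of the pre-B list and 98.4% of the IL7 pro-B list. Its Rad21 peak stood above 93.6% of peaks in pre-B cells, 92.5% for DP and 69.5% for DN. By the RefSeq start, then, Nhej1 had a promoter peak in all 5 lists, and by the GENCODE start it had none. The other site called in all 5 lists lay downstream in an intron of Ihh, a hedgehog ligand gene, 97.6 kb from the GENCODE start, and had the higher of the DN peaks, above 73.7%.

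Atm lies on the minus strand of chromosome 9 from 53247254 to 53344845 and shares its start region with Npat, which runs on the other strand. Its promoter was called for CTCF in IL7 pro-B cells, above 52.2% of the list, and for Rad21 in DP thymocytes, above 16.3%. Atm had 4 sites in a window of 198 kb. The strongest, 138 kb from the start in a Kdelc2 intron, was called in 4 lists, and a site in an Atm intron, at 25.9 kb, carried CTCF in both B-lineage lists and Rad21 in DP thymocytes. The fourth, at 129 kb in a 4930550C14Rik intron, was called for CTCF in IL7 pro-B cells alone.

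**Figure D3:**
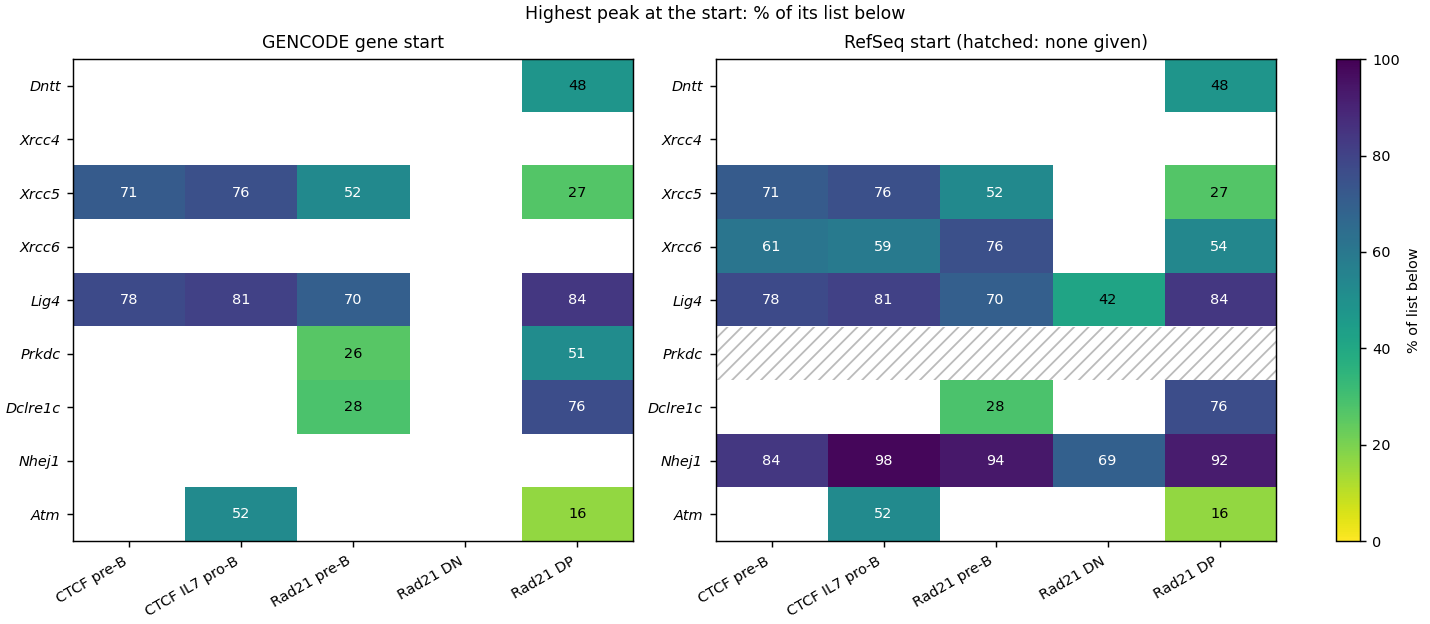
Highest peak within 1 kb of the start, for each gene (rows) and list (columns), at the GENCODE start (left) and the RefSeq start (right). Colour and number give the percent of the list that scored lower, white means not called, and the hatched row marks Prkdc, for which no RefSeq start was used. Nhej1 goes from 0 lists to 5 and Xrcc6 from 0 to 4 with the RefSeq start, and Xrcc4 stays blank in both.

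With RefSeq starts, which were available for 8 of the 9 genes, the counts were 4 for CTCF in pre-B cells, 5 in IL7 pro-B cells, and 5, 2 and 7 for Rad21 in pre-B, DN and DP cells. Of the 14551 protein-coding genes with a RefSeq start placed in the same way, 24.4% and 36.9% had such a CTCF peak, and 18.9%, 3.34% and 32.9% a Rad21 peak. The interval of the 8 genes lay above these shares for pre-B Rad21 (24.5 to 91.5%) and DP Rad21 (47.3 to 99.7%), held them for both CTCF lists, and for DN (3.19 to 65.1%) reached down to just below the share. A statement that CTCF is missing from a promoter of Xrcc6 or Nhej1 thus rests on the start used. For Nhej1 it rests on the annotation. Xrcc6 was also called in both CTCF lists when any GENCODE transcript start was used.

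Dntt was unlike the other promoters in one respect. Its start was called in DP thymocytes only, with Rad21 above 47.7% of the list, and without CTCF in the B-lineage lists. The weaker DP peak at 1.08 kb also reached into the 1 kb after the start. Of all protein-coding genes, 16.2% had a Rad21 peak at the start in the DP list alone among the Rad21 lists, and 7.63% had this with no CTCF peak there. Atm was the other gene of the 9 with Rad21 at its start in the DP list alone, but with CTCF in IL7 pro-B cells. Only B-lineage cells had CTCF lists among the files used, so a site without CTCF is one without a CTCF peak in these cells.

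Around the Dntt start, the DP list had 7 Rad21 sites that neither pre-B cells nor DN thymocytes had. They lay 10.1, 6.98 and 2.31 kb upstream, at the start, and 1.08, 1.91 and 9.95 kb into the gene, all between the site at 12.8 kb upstream and the intron site at 24.5 kb. In the DP list they scored above 33.2%, 9.13%, 63.8%, 47.7%, 11%, 80.6% and 42.6% of peaks. The row thus held both weak and fairly strong peaks, the strongest in the first part of the gene. CTCF was called at 2 of them, at 6.98 kb upstream in IL7 pro-B cells and at 2.31 kb upstream in pre-B cells, and at the other 5 in neither. Genome-wide 65.7% of DP-only sites had no CTCF peak, within the interval of 5 of 7 (29.0 to 96.3%).

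In all, 7 of 14 Rad21 sites at Dntt were called in DP only (50%, 23.0 to 77.0), against 13 of 55 at the other 8 genes (23.6%, 13.2 to 37.0) and 33.6% of 46473 sites genome-wide. The interval of Dntt holds both values. At least as many DP-only sites were found around 934 of the 22350 genes, or 4.18%. Among the other 8 genes, Dclre1c had 4 and the rest 3 or fewer. The count depends on the length of the DP list, the longest of the 3. With peaks below a score of 100 left out, 5 of 12 sites at Dntt were DP-only, the promoter among them, against 6 of 35 at the other genes (17.1%) and 28.9% genome-wide. With each Rad21 list limited to its top 9701 peaks, 2 of 6 sites at Dntt were DP-only, at 1.91 kb in the gene and at 29.5 kb upstream, and the promoter was no longer called. At that limit the share was 5 of 19 at the other genes and 15.6% genome-wide.

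Outside this row, the Dntt sites were mostly shared. The 2 sites called in all 5 lists ranked high for CTCF. At the one 12.8 kb upstream, CTCF scored above 98.5% of the pre-B list and 99.3% of the IL7 pro-B list. Its Rad21 peak stood above 95.7% of peaks in pre-B cells, 96.0% for DP and 11.3% for DN. At the one 42.4 kb from the start, beyond the gene, CTCF scored above 99.7% and 98.9%, and its Rad21 peak stood above 91.1% of peaks in pre-B cells, 24.3% for DP and 23.9% for DN. This was the largest drop in within-list rank from pre-B to DP among the 38 sites of the 9 genes that both cell types share, and is named for that reason. Of 20324 shared sites genome-wide, 0.600% had a drop as large. The lists differ in length and come from 1 library each, so a difference in rank is a place within a list and was not tested as a change in binding.

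The site 29.4 kb upstream, towards Blnk, showed the reverse. Rad21 scored there above 28.3% of the pre-B list and 82.8% of the DP list, the largest rise among the 38 sites, and 3.57% of shared sites genome-wide had one as large. Blnk encodes an adaptor of B-cell receptor signalling. The intron site at 24.5 kb fell from 87.9% to 72.5%, that at 57.5 kb from 75.8% to 58.7% and that at 60.7 kb from 54.2% to 27.2%, and the site at 75.8 kb was called in pre-B cells and not in thymocytes. Drops as large as those at 24.5, 57.5 and 60.7 kb were found at 21.4%, 19.6% and 12.1% of shared sites genome-wide, so they were ordinary in size. For the 38 shared sites of all 9 genes the median difference was 1.46 percentage points, and genome-wide it was 1.45.

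**Figure D4:**
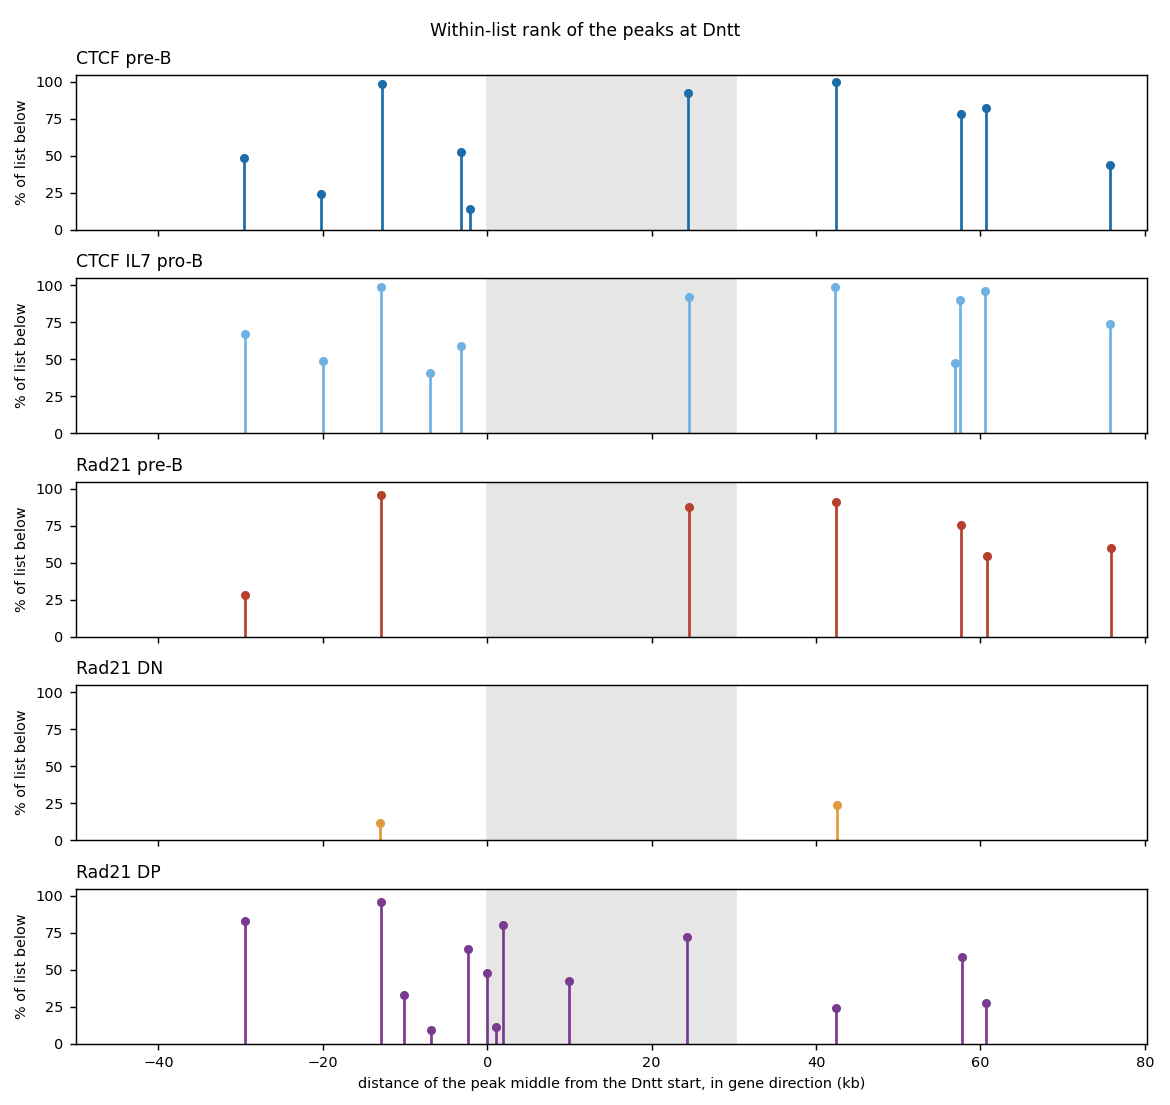
Within-list rank of each peak at Dntt: the percent of its own list that scored lower (vertical axis) against distance from the Dntt start (kb), 1 panel per list, with the gene body in grey. The DP panel alone has a row of Rad21 peaks from 10.1 kb upstream to 9.95 kb into the gene, and the peak at 42.4 kb that stands above 91.1% in pre-B cells stands at 24.3% in DP.

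Against the other 8 genes, Dntt ranked second after Xrcc6 in density in 4 lists and first in the DP list, with 9.98 peaks per 100 kb (5.31 to 17.1) against 9.20 at Xrcc6 and a median of 2.54 over the 8. Of all protein-coding genes, 96.5% had a lower DP density than Dntt, 89.2% a lower pre-B CTCF density, 86.5% a lower pre-B Rad21 density and 75.8% a lower IL7 pro-B CTCF density. The highest CTCF peak of Dntt was the highest of the 9 genes in both CTCF lists, and Xrcc6 had the highest Rad21 peak in all 3 Rad21 lists. First place in DP held for the full list only, and second place in DN, which rests on 2 peaks, became place 4 with scores of at least 100 (0.768 per 100 kb). With the Rad21 lists limited to equal length, Dntt had 2.30 DP peaks per 100 kb and Xrcc6 2.63, and with scores of at least 100 they had 6.91 and 8.54.

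By the percent of list below the highest peak in each of the 5 lists, the genes most like Dntt were Mmab and Mvk, which had the same values, at a Euclidean distance of 1.67, then Agrp and Atp6v0d1, also with the same values, at 2.97, and 9130219A07Rik at 3.84. The likeness is over 5 values and describes their strongest sites only.

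Sharing between the Rad21 lists was within counting error of the genome at large. Of the 69 Rad21 sites in the 9 windows, 13 were called in all 3 Rad21 lists (18.8%, 10.4 to 30.1), against 18.7% genome-wide. A further 25 were called in pre-B cells and DP thymocytes (36.2%, 25.0 to 48.7, against 25.1%), 11 in pre-B cells only (15.9%, 8.24 to 26.7, against 20.6%) and 20 in DP only (29.0%, 18.7 to 41.2, against 33.6%). No site was called in DN only, or in DN with just one of the other cell types (0 of 69 each, exact upper bound 5.21%), classes that held 0.310%, 0.831% and 0.940% of sites genome-wide. All 13 DN peaks therefore overlapped Rad21 peaks of both pre-B cells and DP thymocytes, and each also overlapped a pre-B CTCF peak. Genome-wide 94.5% of DN peaks overlapped DP Rad21 peaks, 93.9% pre-B Rad21 peaks and 96.1% pre-B CTCF peaks.

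**Figure D5:**
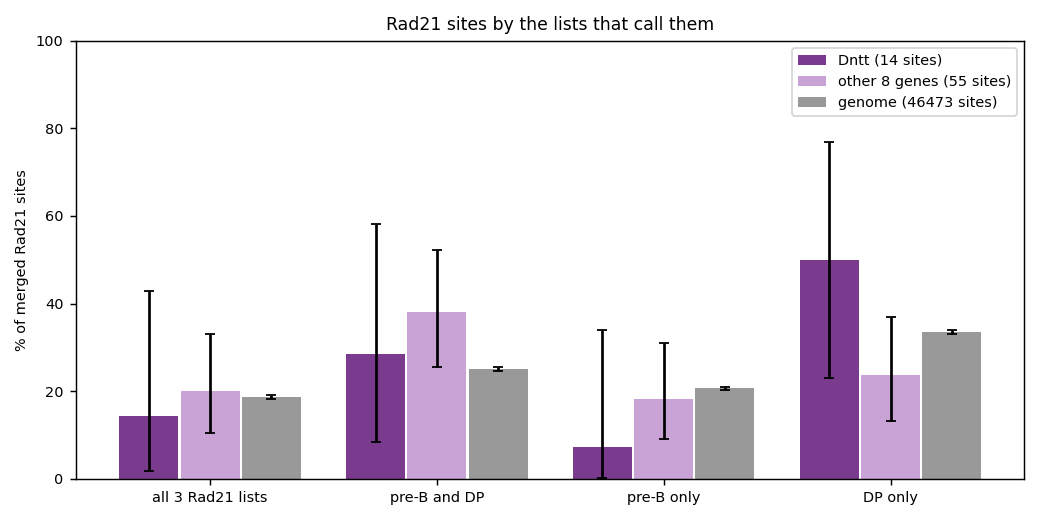
Share of merged Rad21 sites (percent, vertical axis) by the lists that called them, for Dntt, the other 8 genes and the genome, with exact Clopper-Pearson 95% intervals (counting error only). DP-only sites were 50% at Dntt, 23.6% at the other 8 genes and 33.6% genome-wide, and the Dntt interval spans the other two values. Classes with DN and only 1 other list, or DN alone, held no site of these genes and are not drawn.

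Of 76 IL7 pro-B CTCF peaks, from the longer list, 53 overlapped a pre-B peak (69.7%, 58.1 to 79.8), against 58.6% of that list. Nearly all pre-B CTCF peaks were also called in IL7 pro-B cells. Of 56, 53 overlapped a peak there (94.6%, 85.1 to 98.9), against 96.0% of the pre-B list. The pre-B peak 2.31 kb upstream of Dntt, the weaker one at the Lig4 start and the one 5.11 kb upstream of Dclre1c were the exceptions, and they scored above 14.1%, 9.20% and 2.60% of their list. In pre-B cells, whose CTCF and Rad21 peaks were called against the same input, 44 of 56 CTCF peaks overlapped a Rad21 peak (78.6%, 65.6 to 88.4), against 63.5% of the list. Against DP Rad21, called with its own input, 37 of 59 peaks overlapped a pre-B CTCF peak (62.7%), and 60.3% of the DP list did.

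Position relative to gene starts was counted for Rad21 sites with and without CTCF, a count added after the data had been seen. Of the 17 Rad21 sites without a B-lineage CTCF peak, 11 lay within 1 kb of an annotated transcript start of a protein-coding gene (64.7%, 38.3 to 85.8), and of the 52 with one, 15 did (28.8%, 17.1 to 43.1). Genome-wide the shares were 27.8% and 18.8%, so the direction was that of the genome. The 17 included the starts of Prkdc, Dclre1c and Dntt. Of the 17, 13 were called in DP only, among them the Dntt start but not those of Prkdc and Dclre1c. Genome-wide 81.2% of Rad21 sites without CTCF were called in DP only, within the interval of the 17 (50.1 to 93.2%).

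The other genes of break repair and V(D)J recombination were read from a list of 26, of which 25 were found in the annotation. CTCF was called at the gene start of 9 in pre-B cells and 16 in IL7 pro-B cells. These were 36% (18.0 to 57.5) and 64% (42.5 to 82.0), against 22.0% and 33.2% of all genes. Rad21 was called there at 12 in pre-B cells, 48% (27.8 to 68.7) against 16.9%, and at 18 in DP thymocytes, 72% (50.6 to 87.9) against 29.5%. It was called at 0 in DN (exact upper bound 13.7%), against 3.0%. The interval thus lay above the share of all genes in 3 lists and held it for pre-B CTCF and DN. The start was called in 4 lists, all but DN, for 7 genes. The first of them in list order were Hmgb1, a cofactor of RAG, Aptx, which removes adenylate from failed ligations, Polm, a polymerase related to TdT, and Cyren, a modulator of end-joining. At the other end, Xrcc1, a scaffold of single-strand break repair, had no start peak in any list. Among the 10 genes called in a single list, Rag1 and Hmgb2 were called for Rad21 in DP thymocytes and Aplf for CTCF in IL7 pro-B cells. Rag1 itself is disrupted in the DP donors. The share of all genes called in 4 lists, in a single list or in none was not counted, so these counts have no background.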

How the data were processed

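The deposited files list, for each of 5 ChIP libraries, the position and MACS score of each peak that the authors called against input. Duplicates and adapters were removed and reads were mapped to mm9 with Bowtie, keeping reads with up to 3 locations. The submitters' processing notes name Bowtie 0.12.9 and MACS 1.4.2. The methods of the study name another Bowtie release.

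The 9 genes and all lists were chosen with earlier results of these data known. Genes and starts came from GENCODE mouse release M1 on NCBIM37 (mm9), and RefSeq promoters (GRCm38.p6), found for 8 of 9 genes, were placed on mm9 by exact match, as were those of other genes within 1 Mb of the gene. Peaks overlapping by 1 bp or more were shared. Named pathway genes were the first 4 in list order with the most or fewest lists called at the start. Shares have exact Clopper-Pearson and counts exact Poisson intervals. The search for overlaps, merging and motifs was tested on simulated data. Alternatives were a score of at least 100, lists of equal length, other flanks, midpoints, 50% overlap and other mismatch limits. Scripts ran in Python 3.11.15 with scipy 1.17.1, numpy 2.4.6, matplotlib 3.10.9 and pysam 0.24.0, beside samtools 1.23.1. Inputs were not used on their own.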

Additional observations from a re-analysis of the deposited data

How the results depend on the processing

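No paired analysis was possible because each condition has 1 library. The length of the lists mattered most. With lists of equal length, the density over the 9 genes fell to 30.3 CTCF peaks per Mb in IL7 pro-B cells (41.9 in the full list), while the genome fell from 26.9 to 16, and to 8.82 Rad21 peaks per Mb in both pre-B cells (27) and DP thymocytes (32.5), where the genome had 3.68. Dntt then had 2.30 DP peaks per 100 kb, against 2.63 at Xrcc6 and 0.810 as the median of the other genes. Promoter counts for Rad21 fell to 1 for pre-B and 2 for DP (3.41% and 6.04% of all genes). The share of Rad21 sites called in all 3 lists was then 32.0% (genome 33.2%), and with the pre-B CTCF list limited to the 30488 peaks of the pre-B Rad21 list, 91.3% of its peaks had Rad21 (genome 78.9%). With scores of at least 100, the density was 19.8 in pre-B (genome 8.54) and 22.0 in DP Rad21 (genome 9.38), and CTCF peaks with Rad21 were 63.5% (genome 59.1%). With a flank of 20 kb, the IL7 pro-B density was 32.2. Within 5 kb of the start, CTCF was called at 5 genes in either list (38.3% of all genes in pre-B and 52.8% in IL7 pro-B cells) and Rad21 at 2 in DN (8.39%). Any transcript start gave 1 in DN. RefSeq starts, added after the data had been seen, gave 4 in pre-B and 5 in IL7 pro-B CTCF and 2 in DN Rad21. The consensus was matched in 14.3% of peaks with at most 1 mismatch, 85.7% with at most 3, and 32.1% for EMBL_M1 with at most 3. Shares of the whole list and of neighbouring sequence were not computed at these limits, so these 3 values have no background. The causes were not tested beyond the construction of each alternative. The other 64 values of the alternatives stayed within the interval, or within 1.5 times the count, of the main value.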
